A study of Mus musculus with 18 samples.

Results

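Glycolysis and pentose phosphate genes were followed through 6 CD4+ T-cell populations of Foxp3-Tocky mice. The set holds 38 genes, taken by symbol: glucose and lactate carriers, the enzymes from hexokinase to lactate dehydrogenase, the pyruvate dehydrogenase complex with its kinases, the phosphoglucomutases, the pentose phosphate enzymes and the transcription factor gene Hif1a. All 38 were among the 15402 genes of the deposited table, and 37 of them had the mean of 3 or more (log2) that was asked of a gene for testing, as did 13190 genes in all. The exception was Eno1, which codes for the main enolase. It stayed at or under 1.58 in all 18 libraries, whereas its near-identical copy Eno1b ran from 11.14 to 13.29. The longest coding Eno1 transcript matched Eno1b at 99.5% over 1736 bases, so reads of this enolase cannot be assigned from these values and Eno1 is not described further.

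The mice were female C57/BL6 animals carrying the Foxp3Timer transgene and the Foxp3-IRES-GFP reporter, and their age is not given in the labels. In Foxp3-Tocky mice, Foxp3 regulatory sequences drive a fluorescent Timer protein that is blue when new and turns red with age, so blue marks current and red marks past Foxp3 transcription. All animals had 3% oxazolone, a contact sensitiser, put on the abdominal skin, and the draining inguinal and axillary lymph nodes were taken 5 days later, so every population shares the reporters and the sensitisation and there is no untreated group here. Timer+ GFP+ cells were sorted into 4 populations. Pers1 cells, with intermediate blue and little red fluorescence, and Pers2 cells, strong in both colours, were gated as persistent Foxp3 transcribers. PAt cells kept strong red with little blue fluorescence, and Arrested cells had lost the blue form and held intermediate red. The sample labels describe the 4 as de novo (Pers1), maturing (Pers2), mature (PAt) and decaying (Arrested) Foxp3 expressers. Timer-negative GFP-negative cells were sorted by the activation marker CD44 into Tnaive (CD44lo) and Teff (CD44hi) cells. Each population had 3 libraries, each from a pool of 3 mice, and the series text says that all 6 populations were sorted from each mouse, so populations share mice. "Persistent" below means Pers1 and Pers2 together, the mean of both populations, and "PAt and Arrested" is used in the same way.

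Glycolysis splits glucose into pyruvate, and lactate dehydrogenase can turn the pyruvate into lactate, which leaves the cell. The pentose phosphate pathway branches off after hexokinase and makes NADPH and ribose for nucleotides. Resting T cells rely largely on oxidation in mitochondria, and activated T cells are known for taking up more glucose and exporting lactate even when oxygen is present. HIF-1 alpha, the product of Hif1a, and Myc are known activators of many of these genes.

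Values are log2 normalised counts as the authors deposited them, so a difference of 1 is a doubling. The transform draws low genes together, and values of different genes are not comparable as levels, since they are not scaled for gene length. A gene was called when its adjusted p was under 0.05 and its log2 fold change beyond 1 in either direction; counts by the adjusted p alone are given beside it. As a check of the sort, Foxp3 lay between 14.36 and 14.85 in the 12 Timer+ libraries and between 10.38 and 11.38 in the 6 Timer-negative ones, and Cd4 was at or above 14.47 in every library. All 3 Teff libraries also carried genes of other cell types. The summed level of 8 macrophage, monocyte and dendritic cell markers was 11.98 to 12.44 (log2) in Teff and at most 9.58 elsewhere, with Siglech at 10.16 to 10.93 in Teff and at most 4.57 elsewhere. The sum of 6 B cell markers was 12.71 to 13.24 in Teff, 11.77 to 12.36 in PAt and Arrested, 11.24 to 11.44 in the persistent and 9.82 to 10.36 in the Tnaive libraries. Markers of CD8 T cells (2 genes, sum 11.51 or more) and NK cells (4 genes, sum 10.11 or more) were also highest in Teff, with sums of at most 10.70 and 8.15 elsewhere. The sum of 8 proliferation genes was 15.96 to 16.21 in the persistent, 14.58 to 14.64 in the Teff and at most 14.32 in the other libraries. The part of these cells and of cell cycle entry in the results below was not tested. In sorted bulk samples, a change in the share of cells that express a gene and a change of its level per cell cannot be told apart.

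Persistent Foxp3 expressors held more RNA of most of the pathway than PAt and Arrested cells. By the adjusted p alone, 27 of the 37 tested genes rose in the persistent cells (35.9% over the whole table), 7 fell (35.1% of all genes) and 3 passed in neither direction. Past the 2-fold threshold, Tpi1, Slc16a3, Pgam1, Aldoc, Pgk1, Gapdh, Ldha and Hif1a rose, 8 of 37 against 4.74% of all genes, and Eno3, Ldhb, Pdk2 and Pdk1 fell, 4 of 37 against 2.77% of all genes. The 6 persistent libraries all lay above the 6 PAt and Arrested libraries in 25 genes and all below in 6, against 24% and 21.8% of all genes. In GENCODE vM21 on GRCm38, the called genes that rose are Tpi1 (chr6:124810586-124814296, minus strand), Slc16a3 (chr11:120948480-120960868, plus strand), Pgam1 (chr19:41911923-41918660, plus strand), Aldoc (chr11:78322968-78327781, plus strand), Pgk1 (chrX:106187100-106203699, plus strand), Gapdh (chr6:125161715-125166467, minus strand), Ldha (chr7:46841475-46855627, plus strand) and Hif1a (chr12:73901375-73947530, plus strand). Those that fell are Eno3 (chr11:70657202-70662513, plus strand), Ldhb (chr6:142490249-142507957, minus strand), Pdk2 (chr11:95026258-95041354, minus strand) and Pdk1 (chr2:71873224-71903858, plus strand). The median log2 fold change of the 37 genes was 0.48, and that of all tested genes was -0.01. The counts by adjusted p were 27 and 7 in each of the 18 fits that left out 1 library.

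**Figure D1:**
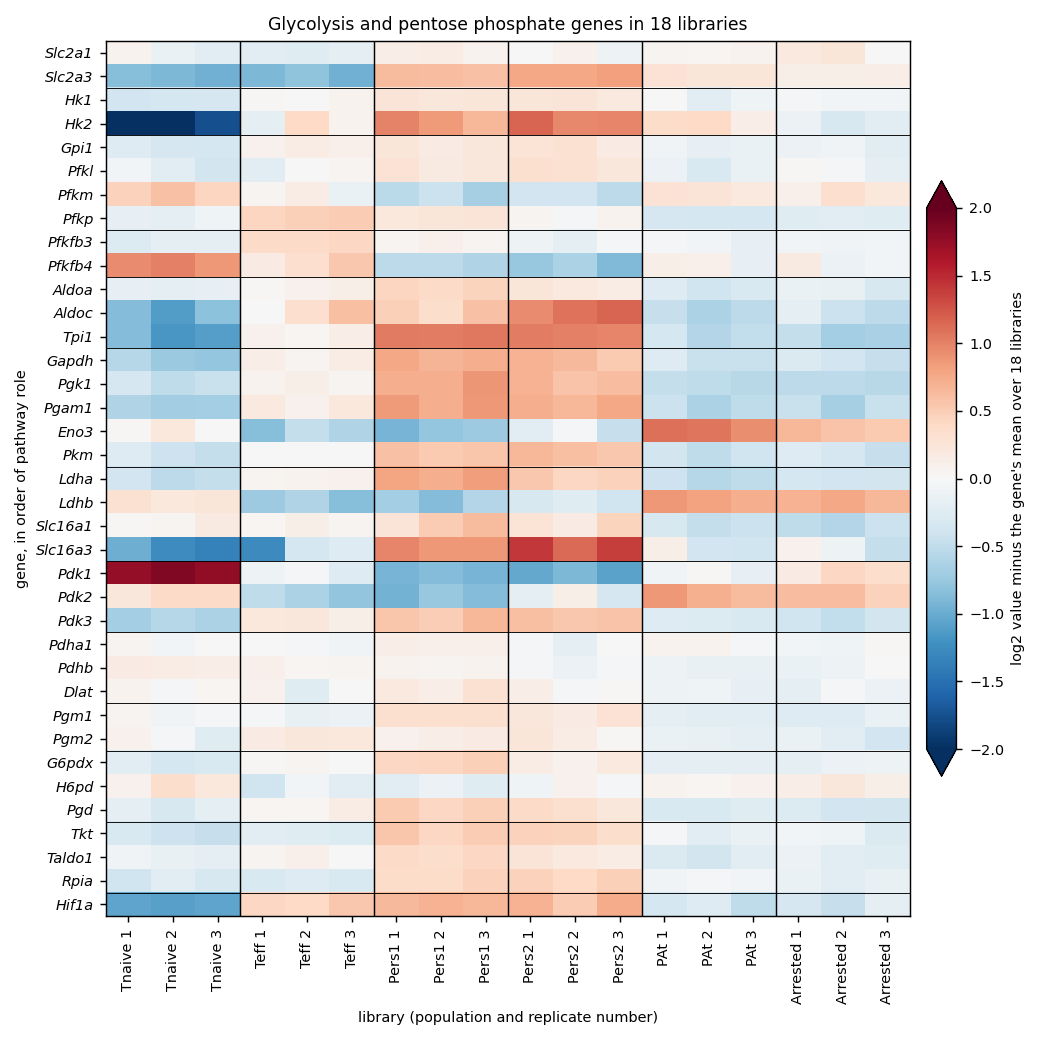
The heat map shows the log2 value of each of the 37 tested genes (rows, in order of pathway role) in the 18 libraries (columns, by population and replicate), minus the gene's mean over the 18 libraries; red is above and blue below that mean, and the scale stops at 2 on either side. Tpi1, Gapdh, Pgk1, Pgam1 and Ldha are red across the 6 persistent libraries, Eno3, Ldhb and Pdk2 are red in the 6 PAt and Arrested libraries, and Pdk1 is darkest red in Tnaive.

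The regions just before the transcription starts of 5 called genes are shown. These genes were chosen because their windows hold ACGTG, 1 form of the HIF-1 binding core. The other form, GCGTG, was neither searched nor marked, so all counts here are of ACGTG alone. The motif ACGTG was searched on both strands, so as ACGTG or as its reverse complement CACGT. The sequence CACGTG, which Myc with Max is known to bind, holds both of them, overlapping. Among the 12 genes called between the persistent and the PAt and Arrested populations, 6 held the motif in the 250 bases before a start: 5 of the 8 that rose and 1 of the 4 that fell (Pdk2). It stood before a start in 17 of the 36 tested members that had a RefSeq window, 47.2%, in 24.8% of the 9938 tested genes with a window and in 18.5% of all 27025 genes with one. Counted by windows, the shares were 40.8% for the members, 21.3% for tested genes and 16.6% of all 32851 windows. Each sequence below is the 250 bases before the start in RefSeq, build GRCm38.p6, all on the plus strand and written 5′ to 3′, with every match in capitals.
Slc16a3, chr11:120948817-120949066: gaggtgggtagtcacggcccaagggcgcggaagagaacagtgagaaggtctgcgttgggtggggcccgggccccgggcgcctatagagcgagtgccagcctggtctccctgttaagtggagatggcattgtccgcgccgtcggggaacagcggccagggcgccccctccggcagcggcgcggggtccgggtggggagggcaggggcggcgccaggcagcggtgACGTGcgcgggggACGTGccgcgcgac
Pgam1, chr19:41911621-41911870: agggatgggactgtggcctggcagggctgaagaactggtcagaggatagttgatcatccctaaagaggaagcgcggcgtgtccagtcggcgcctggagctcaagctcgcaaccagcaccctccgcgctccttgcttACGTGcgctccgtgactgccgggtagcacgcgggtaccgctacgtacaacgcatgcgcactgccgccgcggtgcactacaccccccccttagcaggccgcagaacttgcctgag
Pgk1, chrX:106186850-106187099: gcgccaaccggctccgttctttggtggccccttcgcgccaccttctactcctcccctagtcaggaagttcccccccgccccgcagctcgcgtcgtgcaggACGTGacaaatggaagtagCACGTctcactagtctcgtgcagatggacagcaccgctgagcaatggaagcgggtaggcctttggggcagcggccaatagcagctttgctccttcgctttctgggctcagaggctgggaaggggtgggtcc
Ldha, chr7:46845554-46845803: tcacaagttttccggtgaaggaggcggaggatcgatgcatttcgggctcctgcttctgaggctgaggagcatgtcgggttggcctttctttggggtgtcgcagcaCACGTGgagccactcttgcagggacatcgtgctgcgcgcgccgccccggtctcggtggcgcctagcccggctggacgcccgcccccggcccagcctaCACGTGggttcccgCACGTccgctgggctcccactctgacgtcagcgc
Hif1a, chr12:73907617-73907866: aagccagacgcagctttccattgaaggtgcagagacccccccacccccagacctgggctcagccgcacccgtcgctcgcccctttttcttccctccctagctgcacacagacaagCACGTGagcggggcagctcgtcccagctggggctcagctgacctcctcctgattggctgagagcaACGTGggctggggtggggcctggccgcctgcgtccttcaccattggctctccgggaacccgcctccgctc
Counted from the start, where the base just before it is -1, matches began at -27 and -14 in Slc16a3, at -114 in Pgam1, at -150 and -131 in Pgk1, and at -135, -134 and -70 in Hif1a. Ldha had 5, beginning at -145, -144, -48, -47 and -34, of which the overlapping pairs form CACGTG at 2 places, and Hif1a has 1 such place. A match says only that these letters are there. Binding was not measured, and the windows of Tpi1, Aldoc and Gapdh, which rose as well, did not hold the motif before the start.

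Glucose enters T cells through the carriers GLUT1 (Slc2a1) and GLUT3 (Slc2a3), and of the pair Slc2a3 passed the test between the persistent and the PAt and Arrested cells. Slc2a3 was 12.31, 12.29 and 12.27 in Pers1, 12.46, 12.46 and 12.51 in Pers2, 10.79, 10.87 and 10.72 in Teff, 10.83, 10.79 and 10.72 in Tnaive, 11.97, 11.92 and 11.93 in PAt and 11.80, 11.80 and 11.81 in Arrested libraries. It rose in the persistent cells by 0.51 (SE 0.03, limma adjusted p = 1.6e-11), and all 12 Timer+ libraries lay above all 6 Timer-negative ones. Slc2a1 ran from 10.43 to 10.91 over the 18 libraries, with the groups overlapping, and its difference of -0.05 (SE 0.05, limma adjusted p = 0.44) did not pass. The difference between the changes of both carriers was not tested.

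Hexokinase traps glucose in the cell as glucose 6-phosphate, by Hk1 and by the inducible isozyme Hk2. Tnaive libraries held Hk2 at 5.76, 5.78 and 6.20, Teff at 7.78, 8.35 and 8.02, Pers1 at 8.95, 8.80 and 8.61, Pers2 at 9.11, 8.91 and 8.92, PAt at 8.33, 8.36 and 8.09 and Arrested at 7.84, 7.64 and 7.73. Every library of the other populations lay above the Tnaive libraries, and Pers2 had the highest mean. Between the persistent and the PAt and Arrested cells Hk2 rose by 0.89 (SE 0.10, limma adjusted p = 1.1e-07), short of the 2-fold threshold. Hk1 rose by 0.31 (SE 0.03, limma adjusted p = 5.8e-08).

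In upper glycolysis, 6 of 7 genes rose in the persistent cells by the adjusted p and Pfkm fell (35.9% and 35.1% of all genes). Tpi1, the triose phosphate isomerase gene, had the largest increase of the 37 genes. For Tpi1, the replicates read 12.34, 12.32 and 12.36 in Pers1, 12.33, 12.31 and 12.28 in Pers2, 11.38, 11.34 and 11.44 in Teff, 10.95, 10.71 and 10.82 in PAt, 10.84, 10.62 and 10.66 in Arrested and 10.44, 10.14 and 10.20 in Tnaive cells. The persistent libraries stood apart from all others and the Tnaive libraries were lowest, and the increase over PAt and Arrested cells was 2.94-fold (1.56, SE 0.05, limma adjusted p = 3.3e-16). Aldoc, which codes for an aldolase isozyme best known from brain, was 7.97, 7.85 and 8.08 in Pers1, 8.44, 8.58 and 8.67 in Pers2, 7.49, 7.84 and 8.10 in Teff, 6.64, 6.38 and 6.68 in Tnaive, 7.03, 6.86 and 6.97 in PAt and 7.30, 7.07 and 6.98 in Arrested libraries. Its log2 increase was 1.23 (SE 0.10, limma adjusted p = 3.7e-10). Aldoa, the main aldolase gene, rose by 0.57 (SE 0.04, limma adjusted p = 9.2e-12), Gpi1, glucose phosphate isomerase, by 0.36 (SE 0.04, limma adjusted p = 1.2e-08). Of the 3 phosphofructokinase genes, Pfkp rose by 0.42 (SE 0.03, limma adjusted p = 1.1e-10) and Pfkl by 0.38 (SE 0.06, limma adjusted p = 5.4e-06). Pfkm, known as the muscle isozyme, went the other way and fell by 0.72 (SE 0.06, limma adjusted p = 1e-09).

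Fructose 2,6-bisphosphate, an activator of phosphofructokinase, is made and removed by the Pfkfb enzymes. Pfkfb4 was 7.17 to 7.53 in the persistent libraries, 7.89 to 8.23 in PAt and Arrested, 8.21 to 8.59 in Teff and 8.92 to 9.05 in Tnaive libraries. The persistent and the PAt and Arrested libraries did not overlap, and the log2 fold change was -0.67 (SE 0.08, limma adjusted p = 2.8e-07). Pfkfb3 differed by 0.06 (SE 0.04, limma adjusted p = 0.18) and did not pass the test.

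Lower glycolysis turns triose phosphates into pyruvate, and 4 of its 5 tested genes rose in the persistent cells by the adjusted p (35.9% of all genes). Tnaive libraries held Gapdh at 14.86, 14.68 and 14.65, Teff at 15.56, 15.48 and 15.57, Pers1 at 16.21, 16.11 and 16.15, Pers2 at 16.12, 16.08 and 15.96, PAt at 15.17, 14.98 and 14.98 and Arrested at 15.13, 15.05 and 14.96. For Pgk1, the replicates read 13.65, 13.64 and 13.79 in Pers1, 13.60, 13.48 and 13.52 in Pers2, 12.98, 13.02 and 12.96 in Teff, 12.44, 12.40 and 12.35 in PAt, 12.39, 12.39 and 12.36 in Arrested and 12.58, 12.40 and 12.47 in Tnaive cells. Pgam1 was 12.40, 12.27 and 12.42 in Pers1, 12.28, 12.21 and 12.32 in Pers2, 11.75, 11.63 and 11.76 in Teff, 10.95, 10.86 and 10.88 in Tnaive, 11.12, 10.92 and 11.04 in PAt and 11.11, 10.88 and 11.11 in Arrested libraries. In all 3 genes the 6 persistent libraries were higher than every other library. Log2 increases over PAt and Arrested cells were 1.06 (SE 0.05, limma adjusted p = 2.9e-14) for Gapdh, the glyceraldehyde 3-phosphate dehydrogenase gene, 1.22 (SE 0.04, limma adjusted p = 8.1e-17) for the phosphoglycerate kinase gene Pgk1, and 1.29 (SE 0.05, limma adjusted p = 1.6e-15) for the phosphoglycerate mutase gene Pgam1. Pkm, pyruvate kinase, lay between 15.25 and 15.40 in persistent and between 14.23 and 14.48 in PAt and Arrested libraries, an increase of 0.96 (SE 0.04, limma adjusted p = 2.1e-14), just under the threshold. Eno3, the enolase isozyme known from muscle, fell. Tnaive libraries held Eno3 at 9.42, 9.61 and 9.40, Teff at 8.55, 8.92 and 8.80, Pers1 at 8.47, 8.62 and 8.68, Pers2 at 9.18, 9.36 and 8.94, PAt at 10.49, 10.47 and 10.33 and Arrested at 10.06, 9.97 and 9.92. It was highest in PAt, where all 3 libraries exceeded the 3 Arrested ones, and the log2 fold change was -1.33 (SE 0.08, limma adjusted p = 1.9e-12). Gapdh, Pgk1, Pkm, Ldha, Ldhb and Pdhb have other genes at least 95% identical over at least 50% of a transcript (71 for Gapdh), and how such reads were counted is not given in the sources used here, so their values are less certain. In 8 of the 38 genes, Tpi1 and Gapdh among them, a protein-coding gene overlaps on the opposite strand (Spsb2 and Iffo1 for these), and whether counting used the strand is not given either.

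Both genes of lactate dehydrogenase changed, in opposite directions. Ldha codes for the subunit known to favour lactate formation and Ldhb for the one known to favour its oxidation. For Ldha, the replicates read 14.92, 14.85 and 14.95 in Pers1, 14.67, 14.54 and 14.58 in Pers2, 14.18, 14.19 and 14.21 in Teff, 13.70, 13.55 and 13.61 in PAt, 13.77, 13.74 and 13.75 in Arrested and 13.73, 13.60 and 13.65 in Tnaive cells. Ldhb was 9.17, 8.98 and 9.27 in Pers1, 9.53, 9.62 and 9.46 in Pers2, 9.13, 9.26 and 8.999 in Teff, 10.16, 10.07 and 10.10 in Tnaive, 10.72, 10.65 and 10.58 in PAt and 10.55, 10.63 and 10.53 in Arrested libraries. Ldha was highest in Pers1, and Ldhb was highest in PAt and Arrested cells. Between the persistent and the PAt and Arrested cells, Ldha rose by 1.06 (SE 0.03, limma adjusted p = 2.5e-16) and Ldhb changed by -1.27 (SE 0.06, limma adjusted p = 3.5e-14). Lactate leaves through monocarboxylate transporters, MCT1 (Slc16a1) and MCT4 (Slc16a3). Tnaive libraries held Slc16a3 at 6.92, 6.64 and 6.54, Teff at 6.63, 7.55 and 7.64, Pers1 at 8.87, 8.77 and 8.77, Pers2 at 9.31, 9.03 and 9.29, PAt at 8.02, 7.52 and 7.51 and Arrested at 7.98, 7.79 and 7.42. Slc16a3 was highest in Pers2, and the persistent libraries exceeded all others, with an increase of 1.30 (SE 0.15, limma adjusted p = 8.4e-08). Slc16a1 was 9.81 to 10.28 in persistent and 9.06 to 9.32 in PAt and Arrested libraries, and its increase was 0.84 (SE 0.06, limma adjusted p = 2.5e-10).

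Pyruvate dehydrogenase sends pyruvate into mitochondrial oxidation, and the Pdk kinases switch it off. Pdk1 and Pdk2 were lower and Pdk3 higher in persistent than in PAt and Arrested cells. Pdk1 was 11.11, 11.17 and 11.10 in Pers1, 11.01, 11.13 and 10.96 in Pers2, 11.94, 12.01 and 11.77 in Teff, 13.78, 13.88 and 13.81 in Tnaive, 11.96, 12.06 and 11.87 in PAt and 12.19, 12.45 and 12.38 in Arrested libraries. For Pdk2, the replicates read 7.13, 7.32 and 7.22 in Pers1, 7.89, 8.20 and 7.75 in Pers2, 7.57, 7.44 and 7.28 in Teff, 8.95, 8.78 and 8.72 in PAt, 8.70, 8.70 and 8.54 in Arrested and 8.31, 8.47 and 8.46 in Tnaive cells. Tnaive libraries had the most Pdk1, 13.78 or more, and no other library exceeded 12.45, whereas Pdk2 was highest in PAt and Arrested cells. The log2 fold changes were -1.08 (SE 0.05, limma adjusted p = 5.5e-14) for Pdk1 and -1.15 (SE 0.08, limma adjusted p = 9.5e-11) for Pdk2. Pdk3 was 10.40 to 10.57 in persistent and 9.42 to 9.65 in PAt and Arrested libraries, an increase of 0.92 (SE 0.05, limma adjusted p = 1.7e-13). The subunit genes of the enzyme differed little. Dlat rose by 0.24 (SE 0.06, limma adjusted p = 0.00073) and Pdhb by 0.11 (SE 0.03, limma adjusted p = 0.0071), each with overlapping groups, and Pdha1 did not pass (0.02, SE 0.04, limma adjusted p = 0.55).

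Of the 6 pentose phosphate genes, 5 rose in the persistent cells by the adjusted p (35.9% of all genes), none by 2-fold. In the oxidative branch, which makes NADPH, Pgd (phosphogluconate dehydrogenase) rose by 0.70 (SE 0.04, limma adjusted p = 2e-12) and G6pdx (glucose 6-phosphate dehydrogenase) by 0.45 (SE 0.04, limma adjusted p = 7.4e-10). H6pd, the enzyme of the endoplasmic reticulum, was lower, with a fold change of -0.22 (SE 0.06, limma adjusted p = 0.0016) and overlapping groups. The 3 genes of the branch that exchanges sugars were alike: Tkt (transketolase) rose by 0.60 (SE 0.04, limma adjusted p = 1.2e-10), Taldo1 (transaldolase) by 0.54 (SE 0.04, limma adjusted p = 3.6e-11) and Rpia (ribose 5-phosphate isomerase) by 0.53 (SE 0.04, limma adjusted p = 1.5e-10), and in each the 6 persistent libraries lay above the 6 others. The phosphoglucomutase genes Pgm1 and Pgm2 rose by 0.48 (SE 0.04, limma adjusted p = 3.2e-09) and 0.33 (SE 0.06, limma adjusted p = 2.2e-05).

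**Figure D2:**
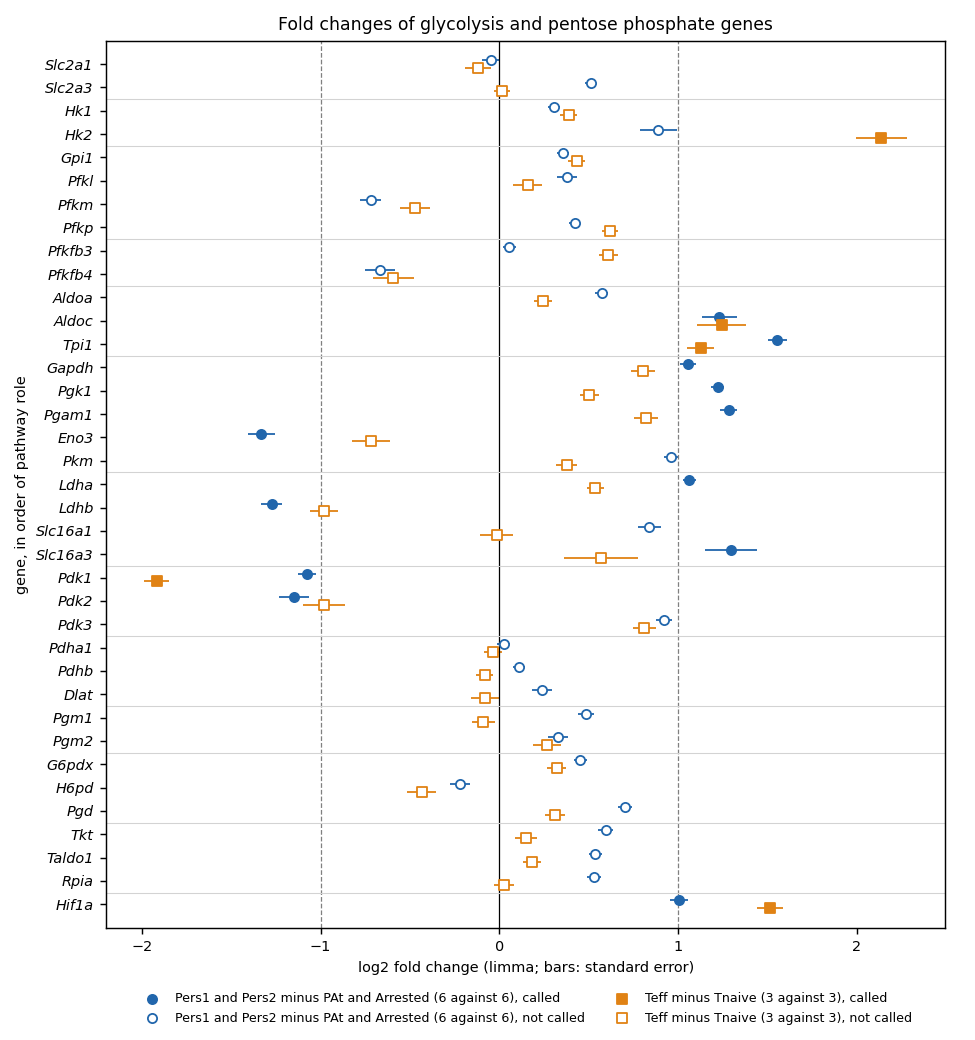
Log2 fold changes (x axis) of the 37 tested genes (y axis, in order of pathway role) between the persistent and the PAt and Arrested populations (blue circles) and between Teff and Tnaive (orange squares), with standard errors as bars; filled symbols are called, and dashed lines stand at -1 and 1. Tpi1 has the highest blue circle at 1.56 and Eno3 the lowest at -1.33, and orange squares reach from -1.92 in Pdk1 to 2.14 in Hk2.

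Hif1a, which codes for the oxygen-regulated subunit of HIF-1, rose both in the persistent cells and in Teff cells. Tnaive libraries held Hif1a at 11.99, 11.95 and 11.98, Teff at 13.45, 13.44 and 13.57, Pers1 at 13.68, 13.73 and 13.69, Pers2 at 13.72, 13.55 and 13.78, PAt at 12.69, 12.77 and 12.52 and Arrested at 12.70, 12.57 and 12.86. Every persistent and Teff library was at 13.44 or more, and no PAt, Arrested or Tnaive library exceeded 12.86. The increase in the persistent cells was 1.00 (SE 0.05, limma adjusted p = 2.6e-13), at the threshold: without any 1 of 5 libraries (Pers1 replicate 2, Pers2 replicates 1 and 3, PAt replicate 3, Arrested replicate 2) it was 0.97 to 1.00 and no longer past 1. Centring each library on its median put Gapdh (0.99), Ldha (1.00) and Hif1a (0.94) just below the threshold, with 5 of 37 genes called higher in place of 8. Over all 13190 tested genes, centring moved those called from 625 higher and 365 lower to 566 and 440. After quantile normalisation Hif1a (0.96) was below the threshold and Pkm (1.03) past it.

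Genes around the pathway were described in the same way. Of 33 tested further genes of glucose use (other carriers, isozymes, phosphatases, pyruvate carriers), 12 rose and 12 fell in the persistent against the PAt and Arrested cells by the adjusted p (35.9% and 35.1% of all genes), close to the shares over all genes, and none was called by limma; by the unadjusted p under 0.05, 13 rose and 13 fell. Between Teff and Tnaive cells 5 rose and 11 fell (31.3% and 27.7% of all genes), and 4 of 33 were called higher, against 8.88% of all genes: Slc2a6 (1.87, SE 0.11, limma adjusted p = 4.9e-12), Galm (1.32, SE 0.09, limma adjusted p = 3.9e-11), Slc2a8 (1.29, SE 0.10, limma adjusted p = 3.5e-10) and Tktl1 (1.10, SE 0.11, limma adjusted p = 4.6e-08). Slc2a6 and Slc2a8 code for further sugar carriers, Galm for the enzyme that interconverts the forms of the sugar ring, and Tktl1 for a relative of transketolase. Among 23 tested genes that control HIF-1, Myc or glucose uptake, 6 rose and 13 fell in the persistent cells (35.9% and 35.1% of all genes). Called were 2 higher and 2 lower, against 4.74% and 2.77% of all genes. These were Epas1, the gene of HIF-2 alpha (2.03, SE 0.09, limma adjusted p = 1.4e-14), and the prolyl hydroxylase gene Egln3 (1.78, SE 0.08, limma adjusted p = 6.3e-14), which were higher, and Myc (-1.68, SE 0.05, limma adjusted p = 4.4e-17) and Txnip, a brake on glucose uptake (-1.59, SE 0.08, limma adjusted p = 1.6e-13), which were lower. Myc was 10.36 to 10.83 in the persistent libraries, 12.06 to 12.61 in PAt and Arrested, 10.55 to 10.61 in Teff and 12.29 to 12.47 in Tnaive libraries, so Myc was low in the persistent and Teff libraries, which overlapped, and high in the others. Epas1 was 8.75 to 9.34 in Tnaive, Teff and persistent libraries and 6.31 to 7.66 in PAt and Arrested ones. Of 16 tested HIF-1 targets outside glucose use, 7 rose and 3 fell in the persistent cells (35.9% and 35.1% of all genes), and only Egln3 was called, 1 of 16 against 4.74% of all genes. Between Teff and Tnaive cells 2 of the 16 were called higher and 3 lower, against 8.88% and 2.28% of all genes. Bhlhe40 (4.44, SE 0.29, limma adjusted p = 2.5e-11) and Egln3 (3.39, SE 0.12, limma adjusted p = 5.7e-16) rose, and Car12 (-1.50, SE 0.12, limma adjusted p = 3.5e-10), P4ha2 (-1.43, SE 0.11, limma adjusted p = 2.4e-10) and Ndrg1 (-1.18, SE 0.09, limma adjusted p = 2.6e-10) fell.

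Teff cells, the activated Timer-negative cells, also held more RNA of the pathway than Tnaive cells, with fewer genes past 2-fold. By the adjusted p, 21 of 37 genes rose (31.3% of all genes) and 7 fell (27.7%), or 18 and 10 after median centring (3424 and 4775 over all genes); Hk2, Hif1a, Aldoc and Tpi1 were called higher, 4 of 37 against 8.88% of all genes, and Pdk1 was called lower, 1 of 37 against 2.28%. The median log2 fold change was 0.24, beside 0.00 for all genes. Hk2 had the largest change of the 37 genes, 4.40-fold (2.14, SE 0.14, limma adjusted p = 4.1e-11), and rose from at most 6.20 in Tnaive to at least 7.78 in Teff libraries. Hif1a rose by 1.52 (SE 0.07, limma adjusted p = 1.1e-13), Aldoc by 1.24 (SE 0.14, limma adjusted p = 1.1e-07) and Tpi1 by 1.13 (SE 0.07, limma adjusted p = 2.3e-11). Pdk1 fell, with a fold change of -1.92 (SE 0.07, limma adjusted p = 1.5e-15). Just short of 2-fold were Ldhb (-0.98, SE 0.08, limma adjusted p = 1e-09) and Pdk2 (-0.98, SE 0.12, limma adjusted p = 3.6e-07), which passed it without Teff replicate 2 (Ldhb, -1.04) and without Teff replicate 1 or Tnaive replicate 1 (Pdk2, -1.05 and -1.03). Slc2a1 (-0.12, SE 0.07, limma adjusted p = 0.18), Slc2a3 (0.02, SE 0.05, limma adjusted p = 0.8), Slc16a1 (-0.01, SE 0.09, limma adjusted p = 0.91) and the 3 pyruvate dehydrogenase genes did not pass the test. All 8 macrophage, monocyte and dendritic cell markers and all 6 B cell markers rose in the same comparison, and their part was not tested. After quantile normalisation Aldoc was at 0.82 and no longer called, and the genes called over the whole table went from 1171 higher and 301 lower to 942 and 550. Gapdh (1.01), Ldhb (-1.06) and Pdk2 (-1.25) were then past the threshold. Median centring also put Ldhb (-1.06) and Pdk2 (-1.06) past it.

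The persistent and the Teff shifts share no library, and they mostly ran in the same direction. By the adjusted p, 20 members rose in both and 7 (Pfkm, Pfkfb4, Eno3, Ldhb, Pdk1, Pdk2, H6pd) fell in both, and none rose in one and fell in the other; over all tested genes 19.7% rose in both, 18.7% fell in both and 8.07% moved in opposite directions. The shifts were then compared directly, as the persistent minus PAt and Arrested difference less the Teff minus Tnaive difference. Of the 37 genes, 18 were higher in this contrast by the adjusted p (23.2% of all genes) and 6 lower (25.5%), with a median of 0.21 beside -0.01 for all genes. None was called higher, although 20 had an unadjusted limma p under 0.05 with that sign. Hk2 alone was called lower, 1 of 37 against 6.9% of all genes: it rose by 0.89 in the persistent and by 2.14 in the Teff comparison, a difference of -1.25 (SE 0.18, limma adjusted p = 5.7e-06). After quantile normalisation the Hk2 difference was -0.88 and not called. By the adjusted p alone, the shift was greater in the persistent cells for genes that included Slc16a1 (0.85, SE 0.11, limma adjusted p = 2.1e-06), Pgk1 (0.72, SE 0.06, limma adjusted p = 6.9e-09), Pkm (0.59, SE 0.07, limma adjusted p = 9.3e-07), Pgm1 (0.57, SE 0.08, limma adjusted p = 2.4e-06), Ldha (0.53, SE 0.06, limma adjusted p = 3.4e-07), Rpia (0.50, SE 0.07, limma adjusted p = 3.4e-06) and Slc2a3 (0.50, SE 0.06, limma adjusted p = 3.9e-07). Slc16a3 passed as well (0.73), and after quantile normalisation it was at 1.13 and called higher. Pdk1 fell less in the persistent than in the Teff comparison (0.84, SE 0.09, limma adjusted p = 5.5e-08) and Eno3 fell more (-0.61, SE 0.13, limma adjusted p = 0.00061), while Pfkfb3 rose in the Teff comparison without a detected change in the other (-0.55, SE 0.06, limma adjusted p = 3.2e-07).

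**Figure D3:**
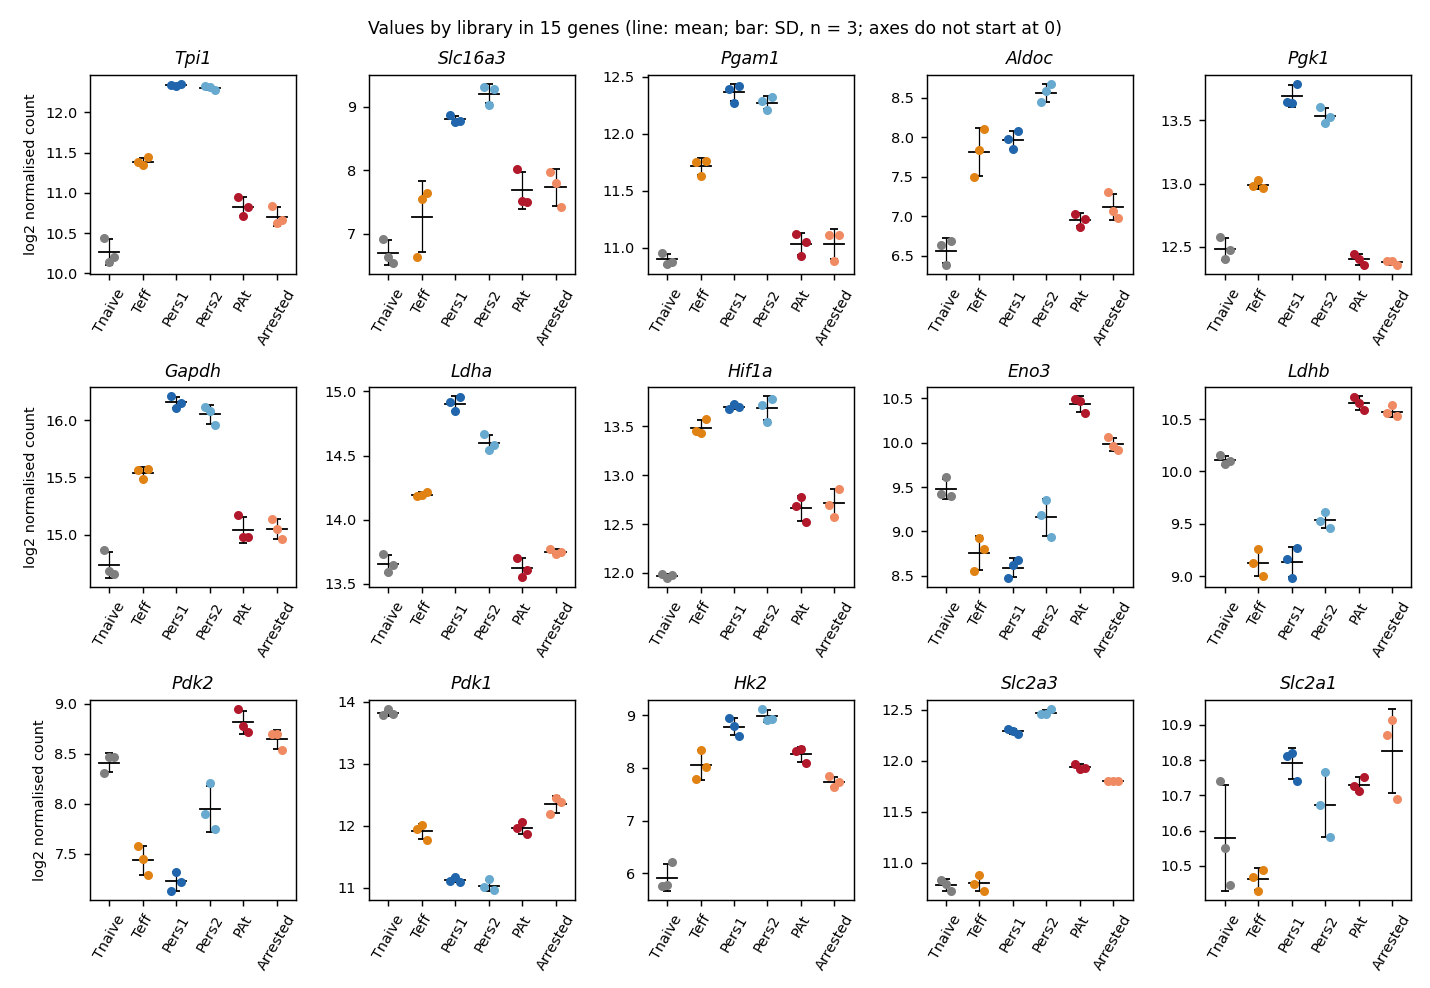
Each panel plots the log2 normalised count of 1 gene (y axis, not from 0) in the 3 libraries of each population (points), with the mean as a line and the SD as a bar. Tpi1, Pgam1, Pgk1, Gapdh, Ldha and Slc16a3 peak in the persistent populations, Eno3, Ldhb and Pdk2 peak in PAt and Arrested cells, Pdk1 peaks in Tnaive at 13.78 to 13.88, and Slc2a3 is 11.80 or more in every Timer+ library and 10.87 or less in every Timer-negative one.

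Persistent cells were then set against Teff cells. By the adjusted p, 26 of 37 genes were higher in the persistent cells (29.8% of all genes) and 5 lower (28.9%). Slc16a3 (1.73, SE 0.18, limma adjusted p = 3.9e-08) and Slc2a3 (1.59, SE 0.04, limma adjusted p = 9.5e-18) were called higher, 2 of 37 against 4.28% of all genes. None was called lower by limma, against 4.03% of all genes, and 5 were lower at an unadjusted p under 0.05; Pfkfb4 came closest (-0.996, SE 0.10, limma adjusted p = 2.5e-08), and it passed the threshold without any 1 of 5 libraries (Pers1 replicates 1 and 2, Pers2 replicate 2, Teff replicates 1 and 2) and after median centring. Tpi1 (0.93, SE 0.06, limma adjusted p = 5.5e-11), Rpia (0.71, SE 0.05, limma adjusted p = 5.9e-11) and Tkt (0.70, SE 0.05, limma adjusted p = 3.7e-10) were also higher, and Pfkp (-0.34, SE 0.04, limma adjusted p = 1.4e-07), Pfkfb3 (-0.41, SE 0.04, limma adjusted p = 8.6e-08) and Pdk1 (-0.83, SE 0.06, limma adjusted p = 1.7e-10) were lower in the persistent cells. The part of the other cell types' markers in the Teff libraries was not tested here either.

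PAt and Arrested cells, compared with Tnaive cells, were higher in 18 of 37 genes (26.9% of all genes) and lower in 8 (23.8%) by the adjusted p. After median centring the counts were 14 and 14, so the lead of higher over lower members depended on the scaling. The whole table moved the same way, from 3549 higher and 3135 lower genes to 2794 and 4615. Hk2 (2.08, SE 0.12, limma adjusted p = 6.9e-12), Slc2a3 (1.09, SE 0.04, limma adjusted p = 2.3e-15) and Slc16a3 (1.00, SE 0.18, limma adjusted p = 7.5e-05) were called higher, 3 of 37 against 6.63% of all genes, and Pdk1 (-1.67, SE 0.06, limma adjusted p = 1.3e-15) lower, 1 of 37 against 1.27%. The call of Slc16a3 was lost after median centring (0.93), after quantile normalisation (0.65) and without any 1 of 5 libraries (Tnaive replicates 2 and 3, PAt replicate 1, Arrested replicates 1 and 2; 0.92 to 0.99). This comparison and the one with Teff share their libraries with the earlier comparisons. Pgk1, Pkm, Ldha and Aldoa, which separated the persistent cells from PAt and Arrested cells, did not pass the test here, with differences of -0.09, -0.01, 0.03 and -0.09. Other genes that separated those cells did pass by the adjusted p, such as Hif1a (0.72) and Tpi1 (0.51), which were higher, and Pfkm (-0.26), which was lower.

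Within the pairs of Timer+ populations the differences were small. Between Pers2 and Pers1, 0 of 37 genes were called (0.19% of all genes), 12 passed by the adjusted p alone (10.6% of all genes) and 17 had an unadjusted limma p under 0.05. Pdk2 (0.73, SE 0.12, limma adjusted p = 0.00038), Aldoc (0.60, SE 0.14, limma adjusted p = 0.0077), Eno3 (0.57, SE 0.11, limma adjusted p = 0.0015), Ldhb (0.40, SE 0.08, limma adjusted p = 0.0029) and Slc2a3 (0.18, SE 0.05, limma adjusted p = 0.017) were higher in Pers2. Ldha (-0.31, SE 0.05, limma adjusted p = 0.00034), G6pdx (-0.29, SE 0.05, limma adjusted p = 0.00099), Aldoa (-0.23, SE 0.05, limma adjusted p = 0.0064), Pfkp (-0.21, SE 0.04, limma adjusted p = 0.0032), Pdha1 (-0.18, SE 0.05, limma adjusted p = 0.024), Taldo1 (-0.18, SE 0.05, limma adjusted p = 0.029) and Pfkfb3 (-0.17, SE 0.05, limma adjusted p = 0.036) were lower. Pdha1, Taldo1 and Pfkfb3 no longer passed without any 1 of 4 libraries (Pers1 replicate 1, 2 or 3, Pers2 replicate 2) or without the trend, which left 4 lower genes in place of 7. Thus Eno3, Ldhb and Pdk2, the genes that PAt and Arrested cells held most of, were each lower in Pers1 than in Pers2. Between Arrested and PAt cells 0 of 37 were called (0.121% of all genes), 3 passed by the adjusted p alone (5.04% of all genes) and 8 had an unadjusted limma p under 0.05. Hk2 (-0.52, SE 0.14, limma adjusted p = 0.038) and Eno3 (-0.45, SE 0.11, limma adjusted p = 0.016) were lower and Pdk1 (0.38, SE 0.07, limma adjusted p = 0.0025) was higher in Arrested cells. Without Arrested replicate 2, PAt replicate 1 or PAt replicate 2 neither Hk2 nor Eno3 passed, which left 1 gene, and Hk2 also missed the test without Arrested replicate 3 or Pers1 replicate 2, in a fit of these populations alone and after quantile normalisation.

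Differences between isozymes were taken within each library, where the scaling of the library cancels; only their changes between populations can be read, not their size, and they are given without a test. Ldha minus Ldhb was 5.69 to 5.86 in Pers1, 4.93 to 5.14 in Pers2, 4.94 to 5.22 in Teff, 3.53 to 3.58 in Tnaive, 3.11 to 3.22 in Arrested and 2.90 to 3.03 in PAt libraries. The ratio of both RNAs was thus 5.05-fold higher in persistent than in PAt and Arrested cells and 2.86-fold higher in Teff than in Tnaive cells. Pdk3 minus Pdk2 ran from 2.25 to 3.35 in the persistent and from 2.54 to 2.74 in the Teff libraries, and it was 1.00 or less in the PAt, Arrested and Tnaive libraries. The ranges of the activated and of the other populations did not overlap in either pair. Pfkp minus Pfkm showed the same division, with 2.88 to 3.47 in persistent and Teff libraries and 1.76 to 2.19 in the other libraries. Aldoa minus Aldoc divided them narrowly, with 5.00 to 6.05 in persistent and Teff libraries and 6.08 to 6.96 in the others. In Pfkp minus Pfkl, Pfkfb3 minus Pfkfb4 and Pdk1 minus Pdk2 these groups of libraries overlapped. Slc2a1 minus Slc2a3 divided the cells another way, with -0.45 to -0.09 in the Timer-negative and -1.92 to -0.89 in the Timer+ libraries. Hk2 minus Hk1 set the Tnaive libraries apart, at -6.52 to -6.11 against -4.95 to -3.78 in all others. Slc16a3 minus Slc16a1 was -1.80 to -0.61 in Timer+ and -3.28 to -2.06 in Timer-negative libraries.

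**Figure D4:**
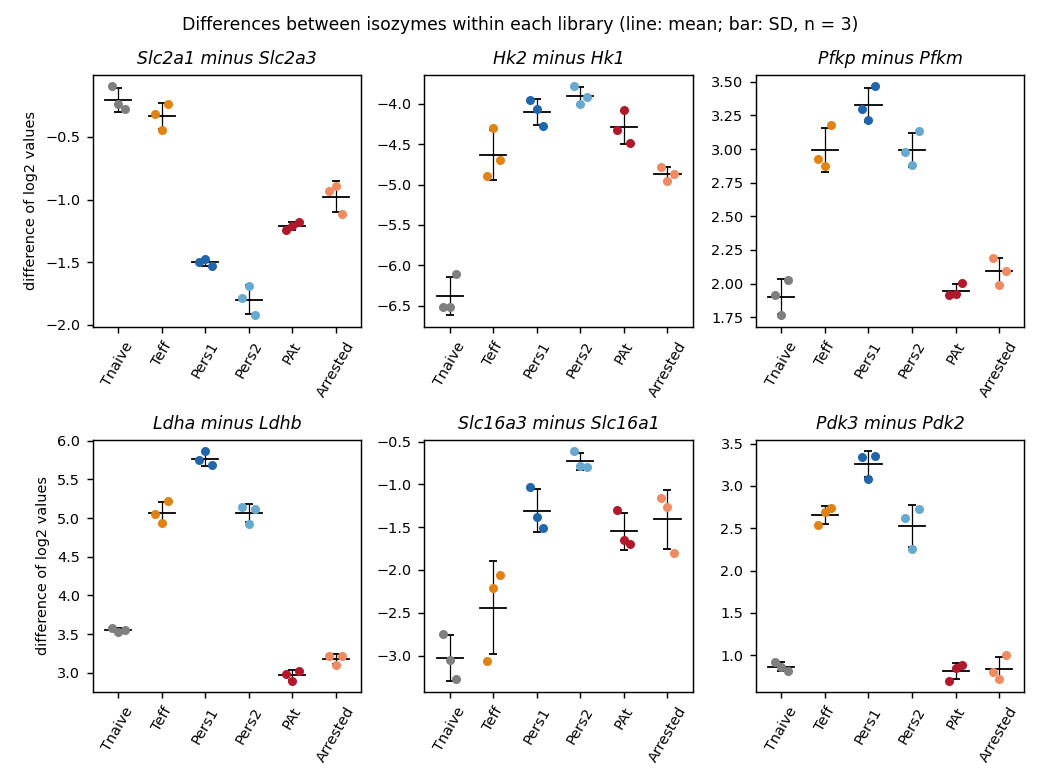
Differences of log2 values between pairs of isozymes (y axis, not from 0) in each library (points) of the 6 populations, with the mean as a line and the SD of the 3 libraries as a bar. Not all pairs taken are shown. Ldha minus Ldhb, Pdk3 minus Pdk2 and Pfkp minus Pfkm separate Teff, Pers1 and Pers2 from Tnaive, PAt and Arrested cells, whereas Slc2a1 minus Slc2a3 separates Timer+ from Timer-negative cells.

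Across populations, 25 of the 37 genes had their highest mean in Pers1 or Pers2 (17 in Pers1, 8 in Pers2), 5 in Tnaive, 3 each in Teff and PAt and 1 in Arrested cells. The lowest mean lay in Tnaive for 16 genes. These counts were not made over all tested genes, so they cannot be read as particular to the set. The SD between replicates, pooled over the 6 populations, had a median of 0.09 over the 37 genes and was at most 0.30, in Slc16a3, where the Teff libraries stood at 6.63, 7.55 and 7.64.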

How the data were processed

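RNA was measured in 18 libraries of 6 sorted T-cell populations with 3 replicates each. As the paper and the submitters' processing notes describe, the authors made stranded mRNA libraries, sequenced paired ends, used CASAVA 1.8.2, FastQC 0.11.2 and TopHat2 2.0.9 with mm10, with or without the Timer gene, and analysed counts with DESeq2. The counting tool, its strand setting and the annotation are not given in the sources used here. For each of 15402 genes the authors deposited a log2 normalised count per library, apparently a regularised log from DESeq2, and values run from -0.02 to 18.89. Since read counts were not used here, depth per library is unknown, and replicate spread sets the precision.

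The 13190 genes with a mean of at least 3 were fitted in 1 linear model with the 6 populations (12 residual degrees of freedom) with limma 3.58.1 (R 4.3.3), using its trend option, no pseudocount and Benjamini-Hochberg adjustment over all tested genes. All adjusted p-values come from this fit and are two-sided. Calls took an adjusted p under 0.05 and a log2 fold change beyond 1. Replicates were separate pools of mice, and no pair of libraries was identical (highest correlation 0.999). The fit was tested on simulated data and recovered 200 of 200 genes raised by 2 between persistent and PAt and Arrested libraries, with 1 false call. That effect lay well past the threshold of 1, and the simulated noise was independent between libraries. The simulation therefore does not test calls near the threshold.

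The members, the 3 lists of related genes and the marker lists were chosen with earlier results of these data known. Named were all members, with every library's value for genes called in the persistent, Teff or shift comparison, and from the related lists the called genes, at most 6 per list. Slc2a3 values, and genes named beside a limit, were added after values were seen. The difference of Eno1 and Eno3 was not used, since Eno1 fell under the floor. Transcripts were compared with BLAST 2.17.0, and promoter sequences came from RefSeq (GRCm38.p6). Alternatives covered the filter, scaling, trend, samples in the fit, call rule, a replicate block and leaving out each library.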

Additional observations from a re-analysis of the deposited data

Results flagged for a closer look

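Hk2, the inducible hexokinase, was the only 1 of the 37 tested genes called for a difference between the persistent shift and the Teff shift. Its log2 value rose by 0.89 from PAt and Arrested to persistent cells and by 2.14 from Tnaive to Teff cells, so the difference was -1.25 (SE 0.18, limma adjusted p = 5.7e-06), tested as an interaction term over all 18 libraries. The Tnaive libraries read 5.76, 5.78 and 6.20. The PAt and Arrested libraries lay between 7.64 and 8.36, a range that overlaps the 7.78 to 8.35 of Teff. All 3 Teff libraries also carried markers of other cell types, and their part in the Hk2 difference was not tested.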

How the results depend on the processing

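Depth is unknown, 3 replicates a population limit the precision, and calls near a 2-fold change moved with the scaling. Counting by the adjusted p alone moved members called higher and lower to 27 and 7 for persistent versus PAt and Arrested, 21 and 7 for Teff versus Tnaive, 26 and 5 for persistent versus Teff, 18 and 8 for PAt and Arrested versus Tnaive, 5 and 7 for Pers2 versus Pers1 (lower down to 4 leaving out 1 library), 1 and 2 for Arrested versus PAt (lower down to 0 leaving out 1 library), and 18 and 6 for the difference of the shifts. With library median centring, members called higher in the persistent cells fell to 5, those called lower were 3 between Teff and Tnaive and 1 between persistent and Teff. After quantile normalisation those called lower were 3 between Teff and Tnaive and 2 between PAt and Arrested and Tnaive, and the difference of the shifts had 1 called higher and 0 lower; over all genes that difference went from 200 higher and 910 lower to 410 and 750. Leaving out 1 library gave 1 to 2 called lower between Teff and Tnaive and 0 to 1 between persistent and Teff. Differences near 0 changed sign, for Teff versus Tnaive in Slc2a3 (-0.068 centred, -0.029 quantile, -0.024 to 0.051 leaving out 1 library), Rpia (-0.057 centred, -0.028 quantile, -0.014 to 0.069 leaving out 1 library), Slc16a1 (-0.043 to 0.034) and Dlat (-0.15 to 0.015), and for persistent versus PAt and Arrested in Pfkfb3 (-0.0089 centred, -0.017 quantile) and Pdha1 (-0.040 centred, -0.027 quantile). The cause was not tested. Quantile normalisation also moved 7 isozyme changes between Teff and Tnaive by more than the spread. The filters, the fit without trend and the fits on the compared populations alone left every count of members called past 2-fold within 1.5 times. By the adjusted p alone, lower members for Pers2 versus Pers1 went from 7 to 4 without trend. Those for Arrested versus PAt went from 2 to 1 in the fit of these populations alone.

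Deviations of same-numbered libraries correlated with a median of 0.17 over 45 pairs, from -0.21 to 0.44 with 32 over 0.1, and 17 of 18 libraries correlated best with their own number. Libraries with different numbers had a median of -0.06 over 90 pairs, with 3 over 0.1. All populations were sorted from the same mice, but the sources used here do not say that 1 number marks 1 pool throughout. With a replicate block, the called members stayed at 8 higher and 4 lower for persistent versus PAt and Arrested and at 4 and 1 for Teff versus Tnaive, and no call of a member changed. By the adjusted p alone, the block gave 5 higher and 9 lower for Pers2 versus Pers1 in place of 5 and 7. It gave 19 and 8 for PAt and Arrested versus Tnaive in place of 18 and 8. For the difference of the shifts it gave 19 and 7 in place of 18 and 6, and the counts of the other comparisons stayed the same.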
